A study of Mus musculus with 9 samples.

Results

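The 10 genes described here mark Langerhans cells and dendritic cells of the skin and their activation. They were taken by name, as the rows of the deposited FPKM table whose gene name is Cd207, Epcam, Flt3, Xcr1, Clec9a, Batf3, Zbtb46, Cd83, Cd86 or Irf4, and joined to the count table by gene identifier. All 10 were found among the 34637 genes of the FPKM table and the 55401 genes of the count table. All 10 also passed the filter on low counts, which left 20817 genes to test. By role, 2 are identity genes of Langerhans cells, 5 are identity genes of dendritic cells, and 3 are genes of activation.

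Langerhans cells are the antigen-presenting cells of the epidermis. They sit between keratinocytes, take up antigen, and carry it to the draining lymph node, where it is shown to T cells. Langerin, the product of Cd207, is the lectin that forms their Birbeck granules, and they also carry EpCAM, an adhesion molecule of many epithelia. The dermis holds conventional dendritic cells of type 1 (cDC1), which present antigen of other cells to CD8 T cells, and of type 2 (cDC2), which mainly prime CD4 T cells. In contact allergy, small reactive molecules bind to skin proteins, and migrating dendritic cells raise CD83 and the co-stimulatory ligand CD86.

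The libraries came from back skin of male C57BL/6 mice aged 6 to 8 weeks, and all mice carried DNCB (2,4-dinitrochlorobenzene) dermatitis, a contact allergy used as a model of atopic dermatitis. The back was shaved on day 0, sensitised on day 1 with 200 µL of 1% DNCB and challenged with 100 µL of 0.5% DNCB from day 4 to day 21. The FJDHF group (5 samples) was fed Fangji Dihuang formulation, an oral herbal extract, every day after day 7, at what the study's methods call a medium dose, the Model group (4 samples) received the same amount of water, and skin was taken on day 28. The comparison asks how the formulation changes RNA levels in inflamed skin, and undamaged skin was not analysed here.

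The table columns are coded MR1, MR3, MR3_4, MR4_5 and MR5, taken as the FJDHF group, and MXL1, MXL12, MXL3_4 and MXL_3, taken as the Model group. The sources used here do not explain the codes. The assignment rests on the number of columns and on MX being the initials of a Chinese term for a model, and the direction of each difference rests on it. Codes with more than 1 number might stand for pooled mice, which could not be checked. For this reason n counts libraries, and p-values set each group difference against the spread between libraries. Total counts per library were 74648669 to 79474215. One library, MXL_3, had the highest mean level of 6 skeletal muscle genes, at 10.83 on the log2(CPM + 0.5) scale, where the other 8 libraries were between 5.61 and 10.08. Many values are also given without it.

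For none of the 10 genes was a difference between the FJDHF and Model groups found that exceeded the spread between libraries. In the FJDHF group, the fitted levels of Epcam, Clec9a, Batf3, Cd83 and Irf4 were at or above those of the Model group, and those of Cd207, Flt3, Xcr1, Zbtb46 and Cd86 were below, a split of 5 to 5. The widest differences were those of Cd207, with a log2 fold change of -0.48 (SE 0.46), and Batf3, with 0.57 (SE 0.86). A log2 fold change of 1 is a doubling, and it is given throughout as FJDHF minus Model. The ranges of the groups overlapped for each of the 10 genes. Without MXL_3, the log2 fold change was 0.22 for Clec9a, 0.16 for Cd86, -0.34 for Xcr1, -0.30 for Flt3, -0.58 for Cd207 and 0.64 for Batf3, and the other 4 genes are given so below. In back skin, fewer cells of a type and less RNA per cell cannot be told apart.

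By edgeR's quasi-likelihood test, 0 of the 10 genes passed an adjusted p under 0.05 with a 2-fold change, and the share called among all 20817 tested genes was 0.0%. At an unadjusted p under 0.05, the count was also 0 of 10, where the share of all tested genes was 1.57%. DESeq2's Wald test called 2 genes of the whole table and none of the 10. Groups that do not overlap in CPM (counts scaled to library size with TMM factors) were found for 0 of the 10 genes and for 0.514% of all tested genes. The median log2 fold change was -0.017 over the 10 genes and -0.032 over all tested genes, of which 44.1% were higher in the FJDHF group.

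The intervals give what this number of libraries could tell. For 7 genes, namely Epcam, Flt3, Xcr1, Clec9a, Zbtb46, Cd86 and Irf4, the 95% interval of the difference lay within 2-fold in either direction. For the other 3, Cd207, Batf3 and Cd83, it reached past 2-fold. The intervals are not adjusted for the 10 genes.

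**Figure D1:**
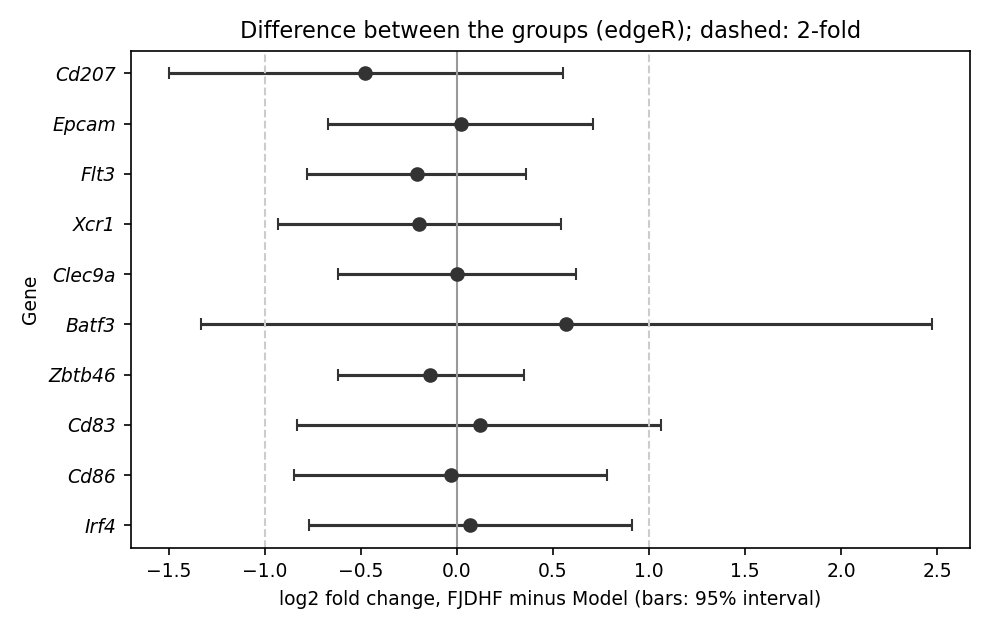
Log2 fold change of each of the 10 genes, FJDHF minus Model, from the edgeR fit, with the 95% interval as a bar and dashed lines at a 2-fold difference. Each interval crosses 0, and those of Cd207, Batf3 and Cd83 pass a dashed line.

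Levels were compared per length of transcript, as FPKM. Epcam had the highest mean FPKM over the 9 libraries, at 46.2, and its lowest library, at 16.7 FPKM, was above the highest library of any other gene. Cd86 (4.95 FPKM), Cd207 (4.46), Irf4 (4.46) and Cd83 (3.82) followed, and neighbours among these 4 had overlapping ranges. The lowest Cd83 library, at 1.85 FPKM, was above the highest Zbtb46 library, at 1.22 FPKM. Lower mean levels were those of Zbtb46 (0.96 FPKM), Clec9a (0.826), Flt3 (0.667), Xcr1 (0.543) and Batf3 (0.196), again with ranges that overlapped between neighbours. The 5 identity genes of dermal dendritic cells had the lowest means, but Cd207, at 1.03 FPKM in its lowest library, overlapped with the ranges of Zbtb46 and of Clec9a, whose highest library had 1.12 FPKM. The median log2 range between libraries was 1.34 over the 10 genes and 1.04 over all tested genes, which were not matched for level. The genes differed in this, from a 1.75-fold range of CPM for Zbtb46 and 1.87-fold for Flt3 to 56.7-fold for Batf3, whose lowest library held 1 count.

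**Figure D2:**
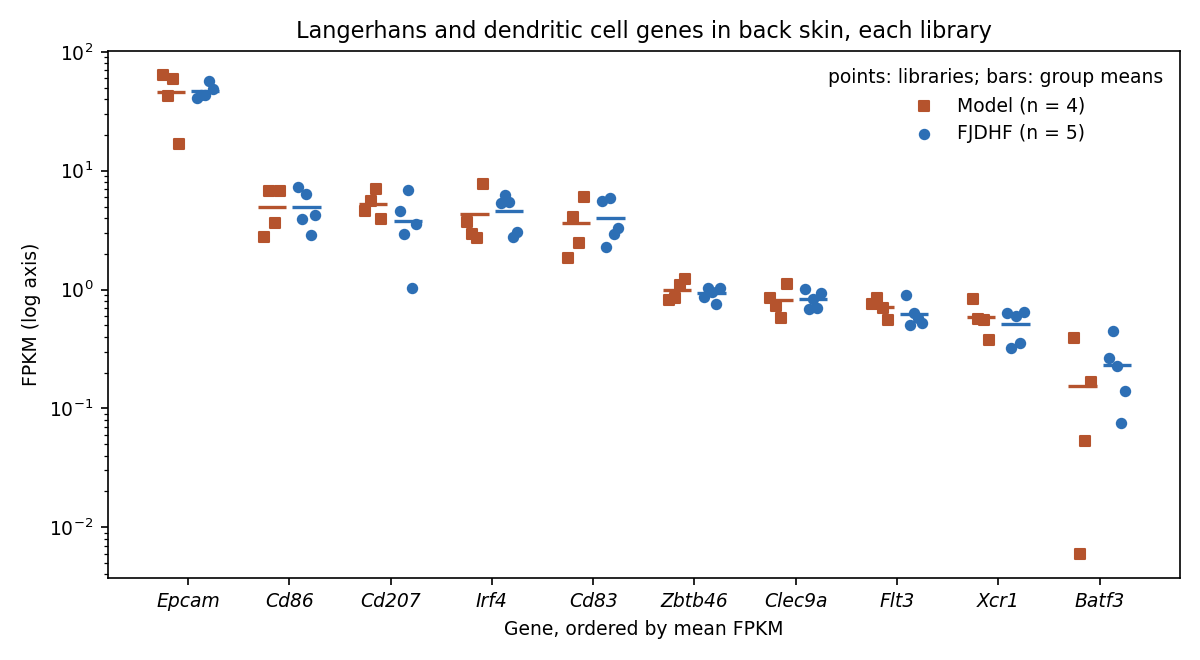
FPKM of the 10 genes in each library on a log axis, with genes ordered by mean FPKM, squares for the 4 Model libraries, circles for the 5 FJDHF libraries and bars for group means. Points of both groups overlap for each gene, a single FJDHF library is low in Cd207, and a single Model library is low in Epcam and another in Batf3.

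Cd207 (ENSMUSG00000034783) lies on the minus strand at chr6:83671215-83677857 of GRCm38, with 6 exon blocks that no exon of another gene overlaps. Its CPM in the FJDHF libraries was 7.48 in MR1, 4.56 in MR3, 11.5 in MR3_4, 1.6 in MR4_5 and 5.53 in MR5. In the Model libraries it was 7.19 in MXL1, 8.94 in MXL12, 11.5 in MXL3_4 and 6.54 in MXL_3. The lowest 3 libraries, MR4_5, MR3 and MR5, were of the FJDHF group, while MR3_4 was level with the highest Model library. The spread within the FJDHF group was 7.21-fold, against 1.76-fold in the Model group, and whether the spreads differ was not tested. The lowest library, MR4_5, held 127 Cd207 counts, well above the 3 counts taken as the floor of detection.

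The mean CPM of Cd207 was 6.14 ± 3.69 (SD, n = 5) in the FJDHF group and 8.54 ± 2.21 (SD, n = 4) in the Model group. The log2 fold change was -0.48, with a 95% interval of -1.5 to 0.55, an edgeR adjusted p of 1.00, and p = 0.262 by a two-sided exact permutation test on log2(CPM + 0.5). The value was -0.23 without MR4_5, -0.30 without MXL3_4 and -0.83 without MR3_4. It was below 0 whichever library was left out, and it passed the test in none of these fits.

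Epcam (ENSMUSG00000045394) lies on the plus strand of chromosome 17, from 87635979 to 87651106 of the same build, as are the positions given for the other genes. Its CPM was 95.2 in MR1, 97.4 in MR3, 104 in MR3_4, 127 in MR4_5 and 110 in MR5. In the Model group it was 145 in MXL1, 99.0 in MXL12, 138 in MXL3_4 and 40.4 in MXL_3. The FJDHF libraries lay within a 1.33-fold range and the Model libraries within a 3.59-fold range whose lowest value was that of MXL_3. The group means were 107 ± 12.7 (SD, n = 5) and 106 ± 47.9 (SD, n = 4), with a log2 fold change of 0.02 (95% interval -0.67 to 0.71, exact permutation p = 0.857). Without MXL_3 the log2 fold change was -0.25. The library MXL_3 is also the one with the highest muscle gene level and the lowest mean level of keratinocyte and hair follicle genes, at 6.53 on the log2(CPM + 0.5) scale against 6.90 to 8.45 elsewhere. With the muscle level as a covariate, the log2 fold change of Epcam was 0.10 (SE 0.29). The part of this tissue make-up in the Epcam value was not tested beyond this.

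The levels of the 2 Langerhans identity genes were not visibly related. MR4_5, lowest in Cd207, had the highest Epcam level of the FJDHF group. Over the 9 libraries, Pearson's r of their log2 levels was -0.05 (exact permutation p = 0.878) and Spearman's rho was 0.07 (exact permutation p = 0.88). Without MR3_4 and MR4_5, the 2 libraries farthest from the median of Cd207, r was 0.28. EpCAM is an adhesion molecule of many epithelia, so Epcam RNA in whole skin is not particular to Langerhans cells. Whether Cd207 RNA came from Langerhans cells alone was not tested. With the identity genes of dendritic cells, Cd207 had the highest r with Xcr1, at 0.61 (exact permutation p = 0.0708, adjusted p = 0.335). With Flt3 it was 0.54 (exact permutation p = 0.123, adjusted p = 0.395). For Zbtb46, Clec9a and Batf3 the r was 0.48, 0.13 and -0.0. Without MR3_4 and MR4_5, these values were 0.44, 0.71, -0.02, -0.32 and -0.68 in the order given. The bases before the start sites of Cd207 and Epcam are shown because both were listed under Langerhans identity. Each sequence is the 250 bases before the RefSeq start on GRCm38.p6, 5′ to 3′ on the strand of the gene. Any match to the AP-1 motif is in capitals.
Cd207 (chr6:83677858-83678107, minus strand): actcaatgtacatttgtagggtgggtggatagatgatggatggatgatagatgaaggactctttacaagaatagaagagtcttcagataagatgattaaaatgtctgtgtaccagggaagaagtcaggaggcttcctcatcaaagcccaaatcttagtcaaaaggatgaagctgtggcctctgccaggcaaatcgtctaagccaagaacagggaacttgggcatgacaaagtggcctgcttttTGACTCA
Epcam (chr17:87635729-87635978, plus strand): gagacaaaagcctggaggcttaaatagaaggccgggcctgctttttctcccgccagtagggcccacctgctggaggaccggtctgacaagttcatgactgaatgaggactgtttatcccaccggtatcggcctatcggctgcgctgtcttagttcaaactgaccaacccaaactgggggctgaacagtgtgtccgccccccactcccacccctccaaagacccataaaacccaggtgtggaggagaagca

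AP-1 factors include Batf3 and partner with Irf4, so promoters were searched on both strands for the letters of their motifs. The window of Cd207 held the AP-1 letters TGANTCA, ending at the base before the start site, and 6.75% of 32851 RefSeq promoter windows held them. The window of Epcam held none of the motifs searched. Of the 10 genes, 8 had a promoter in the RefSeq table, Cd83 and Cd86 being absent, and for 6 of these (Cd207, Epcam, Flt3, Xcr1, Clec9a and Irf4) its start lay within 10 bases of the gene start in the deposited table. Among these 6, Cd207 was the 1 with the AP-1 letters. Another 3 motifs had 0 matches in the 6. They were the AP-1 and IRF composite (GAAA followed at once by TGANTCA, so that it always holds the AP-1 letters), in 0.1% of all windows, the ETS and IRF composite (GGAA, 2 bases of any kind, GAAA), in 2.3%, and the IRF repeat (GAAA, 2 bases of any kind, GAAA), in 2.98%. Of the 2 windows at other starts, that of Zbtb46, 35038 bases from the start in the deposited table, held the AP-1 letters and the AP-1 and IRF composite, and that of Batf3, 567 bases from it, held none. A match is a stretch of letters and not a measured binding site.

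The genes whose levels were most like those of Cd207 over the 9 libraries were Bche (butyrylcholinesterase), Tnfaip8l3 and Xlr, with Pearson's r of 0.97, 0.943 and 0.942 on log2(CPM + 0.5). They are the top 3 of all other tested genes, so the values describe an ordering.

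Flt3 (ENSMUSG00000042817, chr5:147330741-147400489, minus strand) encodes the receptor through which Flt3 ligand sustains dendritic cells and their progenitors. Its CPM was 5.91, 3.16, 4.31, 3.62 and 3.33 in MR1, MR3, MR3_4, MR4_5 and MR5, and 4.83, 5.56, 4.62 and 3.81 in MXL1, MXL12, MXL3_4 and MXL_3. MR1 was the highest of all 9 libraries, and the other 4 FJDHF libraries were below MXL1, MXL12 and MXL3_4. The log2 fold change was -0.21 (95% interval -0.78 to 0.36, exact permutation p = 0.302). Its ligand gene Flt3l had 6.09 ± 1.54 CPM (SD, n = 5) in the FJDHF group and 6.55 ± 3.43 CPM (SD, n = 4) in the Model group. This gave Flt3l a log2 fold change of -0.10 (SE 0.37).

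Zbtb46 (ENSMUSG00000027583, chr2:181387762-181459426, minus strand) encodes a transcription factor that marks conventional dendritic cells among myeloid cells. Its CPM was 7.84, 8.89, 8.97, 6.53 and 9.14 in the FJDHF libraries, in the order given for Flt3, and 7.12, 7.73, 10.1 and 11.4 in the Model libraries. Its SE was the smallest of the 10 genes, and its log2 fold change was -0.14 (SE 0.22, 95% interval -0.62 to 0.35, exact permutation p = 0.5). The highest value was that of MXL_3, and without this library the log2 fold change was -0.01.

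Xcr1 (ENSMUSG00000060509, chr9:123852315-123862029, minus strand), the chemokine receptor of cDC1, and Clec9a (ENSMUSG00000046080, chr6:129408862-129424763, plus strand), the cDC1 lectin that binds exposed actin of dead cells, mark the same cells in textbook accounts. The CPM of Xcr1 was 2.99, 1.46, 2.92, 1.63 and 2.98 in the FJDHF libraries and 3.83, 2.66, 2.63 and 1.85 in the Model libraries. That of Clec9a was 3.55, 2.31, 3.00, 2.34 and 3.19 in the FJDHF libraries and 2.86, 2.54, 2.03 and 4.08 in the Model libraries. Within the FJDHF group, MR3 and MR4_5 were the 2 low libraries for both genes. In the Model group, MXL_3 was the lowest for Xcr1 and the highest for Clec9a. Exons of Clec9a overlap exons of Clec1b on the same strand, so reads of that stretch could be counted to either gene.

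The log2 fold change was -0.20 (95% interval -0.93 to 0.54, exact permutation p = 0.54) for Xcr1 and 0.00 (95% interval -0.62 to 0.62, exact permutation p = 0.921) for Clec9a. Over all 9 libraries, Pearson's r between both genes was 0.21 (exact permutation p = 0.576), Spearman's rho was 0.47 (exact permutation p = 0.213), and r was -0.32 without MR3 and MR4_5. Xcl1, the ligand of Xcr1, was near the limit of detection, at 4 to 43 counts, with a log2 fold change of 0.04 (SE 0.71).

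Batf3 (ENSMUSG00000026630, chr1:191097847-191108945, plus strand) encodes the AP-1 family factor that cDC1 need to develop, and it was the lowest of the 10 genes. Its counts were 35 in MR1, 60 in MR3, 29 in MR3_4, 10 in MR4_5 and 19 in MR5. In the Model group they were 51 in MXL1, 1 in MXL12, 8 in MXL3_4 and 22 in MXL_3. The 1 count of MXL12 is under the floor of 3 counts, which is 0.0395 CPM in that library, so Batf3 was not detectable there at this depth. The mean level was 0.396 ± 0.238 CPM (SD, n = 5) in the FJDHF group and 0.267 ± 0.280 CPM (SD, n = 4) in the Model group. Its log2 fold change was 0.57, with a 95% interval of -1.33 to 2.47 and an exact permutation p of 0.405. It was 0.17 without MXL12, 0.18 without MR3 and 1.49 without MXL1. MXL12 also had the lowest mean level of muscle genes, at 5.61 on the log2(CPM + 0.5) scale, and the highest summed level of neutrophil genes, at 523 CPM. Over the 9 libraries, Batf3 had Pearson's r of 0.73 with the mean level of muscle genes (exact permutation p = 0.0261, adjusted p = 0.261). With that of neutrophil genes r was -0.66 (exact permutation p = 0.0476, adjusted p = 0.315), and -0.2 without MR4_5 and MXL12. With the muscle level as a covariate, the log2 fold change of Batf3 was 0.55 (SE 0.67). The part of either in the Batf3 value was not tested beyond this.

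Cd83 (ENSMUSG00000015396, chr13:43784775-43803132, plus strand) encodes a surface protein that marks mature dendritic cells and is also found on activated B cells. Its CPM was 15.2 in MR1, 5.91 in MR3, 16.7 in MR3_4, 7.61 in MR4_5 and 8.67 in MR5. In the Model group it was 4.88 in MXL1, 11.2 in MXL12, 6.80 in MXL3_4 and 17.1 in MXL_3. Both groups held high and low libraries, and the highest of all was a Model library. The means were 10.8 ± 4.83 CPM (SD, n = 5) and 9.98 ± 5.42 CPM (SD, n = 4), with a log2 fold change of 0.12 (95% interval -0.83 to 1.06, exact permutation p = 0.746). It was 0.51 without MXL_3 and -0.11 without MXL1.

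Cd86 (ENSMUSG00000022901, chr16:36603869-36666081, minus strand) encodes a ligand of CD28 and CTLA-4 on T cells, carried by dendritic cells, macrophages and B cells. Its CPM was 28.3 in MR1, 14.6 in MR3, 25.6 in MR3_4, 10.7 in MR4_5 and 16.1 in MR5. In the Model group it was 10.5 in MXL1, 26.4 in MXL12, 14.2 in MXL3_4 and 27.0 in MXL_3. The same 4 libraries, MR1, MR3_4, MXL12 and MXL_3, were the highest for Cd86 and for Cd83. The group means of 19.0 ± 7.54 CPM (SD, n = 5) and 19.5 ± 8.43 CPM (SD, n = 4) were nearly equal, with a log2 fold change of -0.03 (95% interval -0.85 to 0.78, exact permutation p = 0.952).

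The receptors of CD86 were measured in the same libraries. Cd28, the activating receptor, had 3.65 ± 1.05 CPM (SD, n = 5) in the FJDHF group and 3.31 ± 0.943 CPM (SD, n = 4) in the Model group. Ctla4, the inhibitory receptor of activated and regulatory T cells, had 0.803 ± 0.215 CPM (SD, n = 5) and 1.57 ± 1.01 CPM (SD, n = 4), with the log2 fold change at -0.96 (SE 0.47, exact permutation p = 0.183). Without MXL12 the value for Ctla4 was -0.53.

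Irf4 (ENSMUSG00000021356, chr13:30749226-30766976, plus strand) encodes a transcription factor needed for cDC2 to migrate, and it is also used by macrophages, plasma cells and T cells. Its CPM was 28.2 in MR1, 31.4 in MR3, 29.5 in MR3_4, 13.9 in MR4_5 and 15.5 in MR5. In the Model group it was 18.7 in MXL1, 15.2 in MXL12, 14.4 in MXL3_4 and 41.9 in MXL_3. The FJDHF group was split into 3 high and 2 low libraries, and in the Model group MXL_3 stood above the other 3. The log2 fold change was 0.07 (SE 0.38, 95% interval -0.77 to 0.91, exact permutation p = 0.722). Without MXL_3 it was 0.56, which also did not pass the test.

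The 9 libraries differed in these genes within each group, so the levels of the genes were compared with each other across libraries. Of the 45 pairs among the 10 genes, 29 had an r above 0, and the median r was 0.19. At an unadjusted exact permutation p under 0.05, there were 6 pairs, and 0 passed after adjustment over the 45. Cd83 and Cd86 were the closest pair, with Pearson's r of 0.91 (exact permutation p = 0.00244, adjusted p = 0.11) and Spearman's rho of 0.85 (exact permutation p = 0.00607, adjusted p = 0.137). Without MR3_4 and MXL_3 the r was 0.88. A gap separated the 4 libraries with 25.6 to 28.3 CPM of Cd86 from the 5 with 10.5 to 16.1 CPM, and with fewer than 6 libraries on either side no correlation was computed within them.

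The lowest values of r were those of Epcam with other genes. With the activation genes its r was -0.75 with Irf4 (exact permutation p = 0.00745, adjusted p = 0.168), -0.67 with Cd83 (exact permutation p = 0.0178, adjusted p = 0.215) and -0.64 with Cd86 (exact permutation p = 0.0224, adjusted p = 0.215). Spearman's rho for these 3 pairs was -0.68, -0.68 and -0.87, with exact permutation p of 0.0503, 0.0503 and 0.00451. Without MXL1 and MXL_3 the r was -0.70, -0.49 and -0.70. The remaining 2 pairs were Epcam with Clec9a, at r = -0.70 (exact permutation p = 0.0238, adjusted p = 0.215, rho = -0.53, r = -0.61 without MXL1 and MXL_3), and Clec9a with Cd83, at r = 0.68 (exact permutation p = 0.0457, adjusted p = 0.335, rho = 0.72, r = 0.54 without MXL3_4 and MXL_3).

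The 10 genes were also set against the mean log2 levels of 8 lists of marker genes of other skin cells, a step chosen after the values were seen. Of these 80 relations, 12 had an unadjusted exact permutation p under 0.05, and 0 passed after adjustment over the 80. Irf4 had r = 0.88 with the macrophage list (exact permutation p = 0.00406, adjusted p = 0.162, rho = 0.77, r = 0.89 without MR1 and MR3_4) and r = 0.87 with the skeletal muscle list (exact permutation p = 0.00196, adjusted p = 0.157, rho = 0.90, r = 0.88 without MXL12 and MXL_3). With the list of basal keratinocytes and hair follicle epithelium, Cd83 and Cd86 had r of -0.84 and -0.85 (exact permutation p = 0.00866 and 0.00869, adjusted p = 0.174 for both, rho = -0.80 and -0.77, r = -0.78 and -0.68 without MR4_5 and MXL1), whereas Epcam had r = 0.69 with it (exact permutation p = 0.0141, adjusted p = 0.212, rho = 0.60, r = 0.60 without MR4_5 and MXL1). For Cd207 the largest of the 8 was r = -0.41, with the same list (exact permutation p = 0.289, adjusted p = 0.661, rho = -0.22, r = -0.10 without MR4_5 and MXL1). The part of other cell types in the levels of the 10 genes was not tested.

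**Figure D3:**
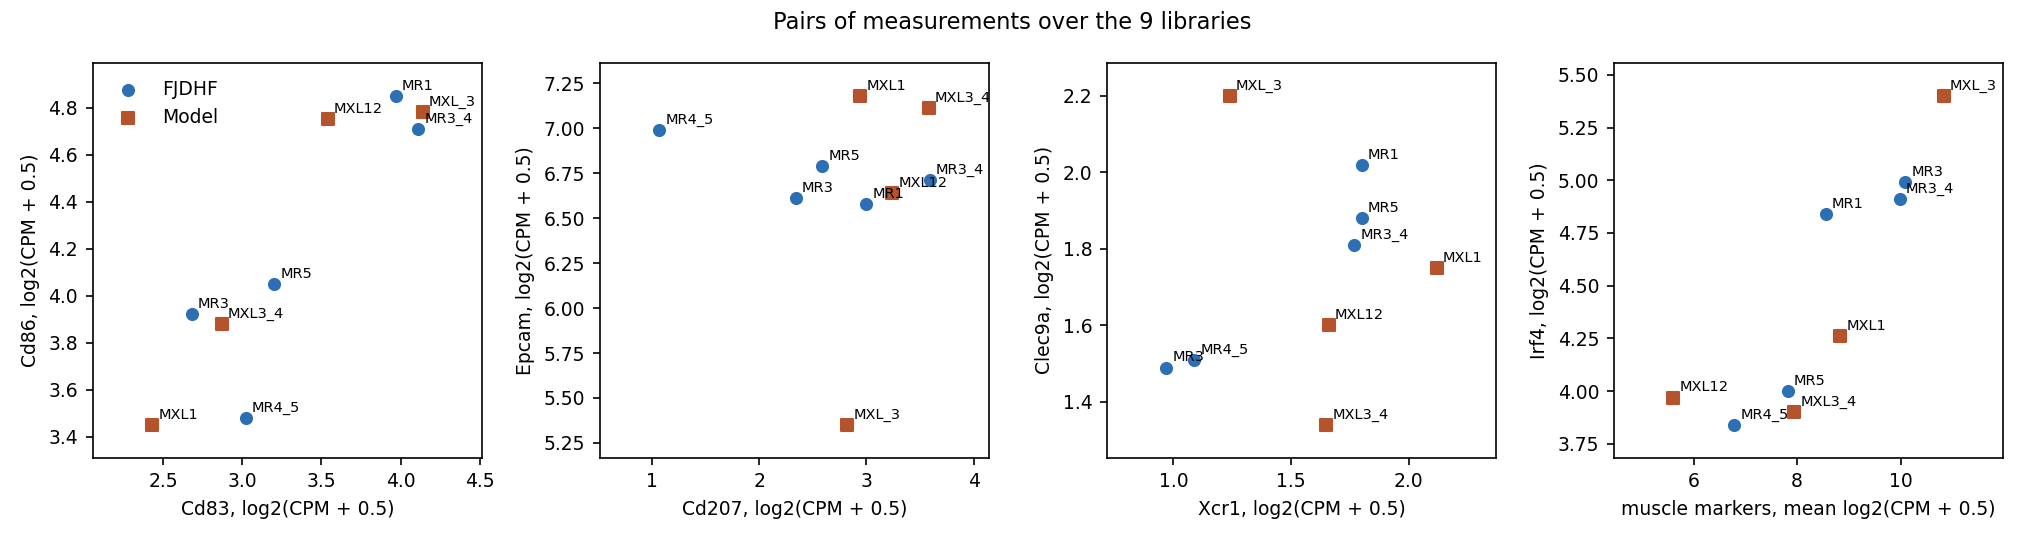
Pairs of log2 levels in the 9 libraries: Cd86 against Cd83, Epcam against Cd207, Clec9a against Xcr1, and Irf4 against the mean level of 6 skeletal muscle genes, with circles for FJDHF and squares for Model libraries. Cd83 and Cd86 lie along a line (r = 0.91) on which both groups are mixed, Cd207 and Epcam do not (r = -0.05), and MXL_3 is lowest in Epcam and highest in Irf4 and in muscle genes.

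The wider pathways of these cells were read from 8 lists with 66 genes, all of them tested. In the FJDHF group, 33 of the 66 had a fitted log2 fold change above 0. None passed the adjusted threshold, and 4, namely Ccr6, Klf4, Ccr7 and Siglech, had an unadjusted p under 0.05 by edgeR's quasi-likelihood test, a share of 6.06% where that of all tested genes was 1.57%. Of these 4, 2 were higher and 2 lower in the FJDHF group, and the groups overlapped for each. The lists were chosen with earlier results of these data known, so the share is a description. Leaving out each library in turn, a step added after the data were seen, changed the sign of the list median for 6 of the 8 lists. The 2 that kept it were the mature and migratory list, at -0.49 to -0.22, and the plasmacytoid list, at 0.03 to 0.46. Of 28 pathway genes named by rule, 13 had a log2 fold change of the opposite sign without some library, namely Cdh1, Tgfbr2, Csf2rb, Csf2ra, Kitl, Id2, Naaa, Cacnb3, Cd74, Ctss, Cd28, Icos and Bst2.

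**Figure D4:**
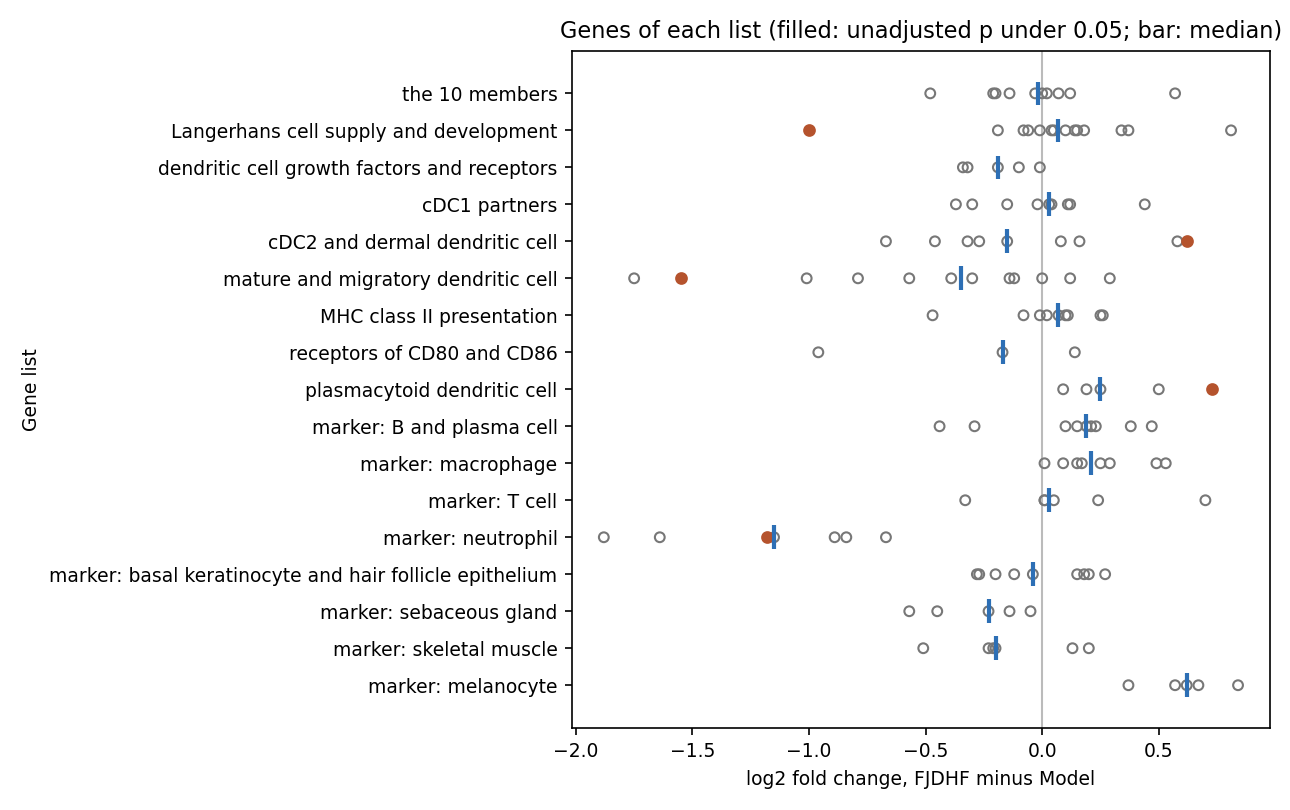
Log2 fold change, FJDHF minus Model, of each gene in the 10 genes described, in 8 pathway lists and in 8 lists of markers of other cells, with filled points for an unadjusted p under 0.05 by edgeR and a bar at the median of each list. The medians of the pathway lists lie between -0.35 and 0.25, and the neutrophil list has all 7 genes below 0, where its median without MXL12 was 0.59.

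Among 14 genes of Langerhans cell supply and development, 9 were higher and 5 lower in the FJDHF group, with a median log2 fold change of 0.07 that was -0.06 without MR1 and 0.18 without MXL1. Ccr6, the receptor for the keratinocyte chemokine Ccl20, had 0.990 ± 0.596 CPM (SD, n = 5) in the FJDHF group and 1.98 ± 0.315 CPM (SD, n = 4) in the Model group. Its log2 fold change was -1.0 (SE 0.43, edgeR adjusted p = 1.00, exact permutation p = 0.0397), and it lay between -1.38 and -0.83 when any 1 library was left out. Ccl20 itself had 2.12 ± 1.71 CPM over the 5 FJDHF libraries and 1.21 ± 0.171 CPM over the 4 Model libraries (mean ± SD), a log2 fold change of 0.81 (SE 0.58) that was 0.42 without MR3_4. Il34, the keratinocyte cytokine that sustains Langerhans cells, had a log2 fold change of 0.14 (SE 0.43), with 12.6 ± 4.58 CPM over the 5 FJDHF libraries and 11.4 ± 7.46 CPM over the 4 Model libraries (mean ± SD). Of the most abundant genes of the list, Cdh1, the E-cadherin that holds Langerhans cells to keratinocytes, had 0.10 (SE 0.30) and Tgfbr2, a receptor chain for TGF-beta, -0.19 (SE 0.26). Cdh1 lay between -0.14 and 0.28 when any 1 library was left out, and Tgfbr2 was 0.03 without MXL_3.

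All 5 genes of dendritic cell growth factors and receptors had a log2 fold change below 0, with a median of -0.19 and none past the unadjusted threshold. Among them, Csf2 was at 0 counts in at least 1 library. Without MXL_3, 3 of the 5 were above 0 and the median was 0.05, and without MXL12 it was 0.06. Csf2ra and Csf2rb, the receptor chains for GM-CSF, had -0.19 (SE 0.32) and -0.32 (SE 0.30), and Kitl, the ligand of Kit, had -0.01 (SE 0.20). For Csf2rb the value was 0.06 without MXL12.

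The 9 partners of cDC1 identity were split 5 to 4, with a median of 0.03 that was -0.16 without MR1 and 0.11 without MR4_5. Irf8, the transcription factor that acts with Batf3 in cDC1, had a log2 fold change of 0.44 (SE 0.41), and 0.19 without MR1. Itgae, which encodes the CD103 integrin of a share of cDC1 and of resident T cells, had -0.37 (SE 0.32). Id2, needed for several dendritic and lymphoid cells, and Naaa, a lysosomal enzyme, had 0.03 (SE 0.22) and -0.02 (SE 0.25).

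Of 9 genes of cDC2 and dermal dendritic cells, 4 were higher and 5 lower, with a median of -0.15. Among the 5 lower was Clec4a4, at 0 counts in at least 1 library. Without MXL_3, 5 were higher and the median was 0.05, without MR4_5 it was 0.04, and without MR1 it was -0.29. Klf4, a transcription factor used by cDC2 and strongly expressed in the upper epidermis, had 262 ± 46.6 CPM (SD, n = 5) in the FJDHF group and 171 ± 37.9 CPM (SD, n = 4) in the Model group. Its log2 fold change was 0.62 (SE 0.20, edgeR adjusted p = 1.00, exact permutation p = 0.0317), and it lay between 0.55 and 0.78 when any 1 library was left out. Clec10a, a lectin of macrophages and cDC2, had 0.58 (SE 0.41), and Ly75, the endocytic receptor DEC-205, had -0.46 (SE 0.28). Without MR3_4 the value for Clec10a was 0.38, and without MXL12 that for Ly75 was -0.17.

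Of 12 genes of mature and migratory dendritic cells, 3 were higher and 9 lower in the FJDHF group, with a median of -0.35 that was -0.32 without MXL_3. Among the 9 lower were Ccl17, Il12b and Il23a, each at 0 counts in at least 1 library. Ccr7, the receptor that guides dendritic cells to lymph nodes and is also borne by naive T cells and B cells, had 15 to 44 counts per FJDHF library and 41 to 85 per Model library. The level was 0.309 ± 0.151 CPM over the 5 FJDHF libraries and 0.906 ± 0.292 CPM over the 4 Model libraries (mean ± SD), and its log2 fold change was -1.55 (SE 0.44, edgeR adjusted p = 1.00, exact permutation p = 0.0238). It lay between -1.87 and -1.41 when any 1 library was left out. Cd274, the PD-L1 ligand of the T cell receptor PD-1, had -0.39 (SE 0.25), and -0.14 without MXL12. Cacnb3, a calcium channel subunit, had 0.12 (SE 0.51).

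Of 9 genes of MHC class II presentation, 6 were higher and 3 lower, with a median of 0.07 that was 0.28 without MXL_3 and -0.20 without MR1. Cd74, the invariant chain, varied widely, with 541 ± 338 CPM over the 5 FJDHF libraries and 456 ± 263 CPM over the 4 Model libraries (mean ± SD). Ctss, the protease that trims it, had a log2 fold change of 0.02 (SE 0.37). Ciita, the class II master regulator, had 0.26 (SE 0.31) and 0.02 without MR1, and H2-DMb2, a chain of the peptide exchange molecule H2-DM, had -0.47 (SE 0.39). The list named for receptors of CD80 and CD86 held 3 genes, with a median of -0.17 (-0.40 without MR1 and 0.04 without MR3). This median is the value of Icos, -0.17 (SE 0.43), a co-stimulatory receptor related to CD28 that has a ligand of its own. Cd28 had 0.14 and Ctla4 -0.96.

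All 5 genes of plasmacytoid dendritic cells had a log2 fold change above 0, with a median of 0.25 (0.32 without MXL_3, and 0.03 without MXL3_4, when 4 of the 5 were above 0). Siglech, a surface lectin of mouse plasmacytoid dendritic cells and microglia, had 5.07 ± 1.78 CPM over the 5 FJDHF libraries and 3.05 ± 0.646 CPM over the 4 Model libraries (mean ± SD). Its log2 fold change was 0.73 (SE 0.31, edgeR adjusted p = 1.00, exact permutation p = 0.0476), and it lay between 0.56 and 0.85 when any 1 library was left out. Ccr9, a chemokine receptor found on these cells, had 0.50 (SE 0.36), Bst2 0.09 (SE 0.40) and Irf7 0.25 (SE 0.44), the last being 0.02 without MXL3_4.

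Markers of other cells were measured beside these genes, as 55 genes in 8 lists. By edgeR, 0 of the 55 passed the adjusted threshold and 1 had an unadjusted p under 0.05, a share of 1.82% beside 1.57% of all tested genes. This was Mmp8, the neutrophil collagenase, with 3.41 ± 1.05 CPM (SD, n = 5) in the FJDHF group and 7.70 ± 2.69 CPM (SD, n = 4) in the Model group, the 1 gene of these lists whose groups did not overlap, as for 0.514% of all tested genes (log2 fold change -1.18, SE 0.33, exact permutation p = 0.00794, the smallest this design allows). All 7 neutrophil genes were below 0, with a median of -1.15, and their summed level was 36.9 to 145 CPM in the FJDHF group and 24.9 to 523 CPM in the Model group, where MXL12 was the highest. Without MXL12, 4 of the 7 were above 0 and 3 below, with a median of 0.59. All 8 macrophage genes were above 0, with a median of 0.21 (0.44 without MXL_3, and -0.01 without MXL3_4, when 4 were above 0 and 4 below) and sums of 1269 to 3047 CPM against 1129 to 3160 CPM. The sums of the other 6 lists also overlapped. They were those of 9 genes of basal keratinocytes and hair follicle epithelium (2062 to 8670 against 2243 to 9234 CPM, median -0.04, and -0.28 without MXL_3 or 0.34 without MXL1), 6 skeletal muscle genes (1020 to 8254 against 397 to 12068 CPM, median -0.20, and 1.12 without MXL_3 or -0.58 without MXL12) and 5 sebaceous gland genes (3652 to 8391 against 5200 to 7396 CPM, median -0.23, and -0.43 without MXL_3 or -0.11 without MXL3_4). They were also those of 5 melanocyte genes (123 to 333 against 47.4 to 244 CPM, median 0.62, and 0.34 without MXL_3 or 1.05 without MXL3_4), 9 B and plasma cell genes (298 to 661 against 275 to 698 CPM, median 0.19, and 0.59 without MXL1 or 0.09 without MXL12) and 6 T cell genes (13.7 to 37.6 against 18.7 to 27.4 CPM, median 0.03, and -0.17 without MR1 or 0.23 without MR3). Of the 55 marker genes, Ly6g of the neutrophil list was at 0 counts in at least 1 library and the rest were detected in all 9. Of the pathway genes, Csf2, Clec4a4, Ccl17, Il12b and Il23a, named for that reason alone, were at 0 counts in at least 1 library.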

How the data were processed

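Polyadenylated RNA of back skin was made into strand-specific libraries and read from both ends. The authors deposited whole-number read counts per gene without normalization, and FPKM values, that is, counts divided by gene length and library size. The submitters' processing notes name HISAT, StringTie, DESeq2 and mm10. The counting program, the annotation release and the strand setting are not given in the sources used here. Another 9 per-library columns of the FPKM table equalled the deposited counts and were left aside. No row lacked a gene identifier.

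The 10 genes, the gene lists and the rules were chosen with earlier results of these data known. Counts were tested with edgeR 4.0.16 under R 4.3.3 (quasi-likelihood test after filterByExpr and TMM, Benjamini-Hochberg adjustment over 20817 genes, no covariate, biological coefficient of variation 0.477). Alternatives were DESeq2 1.42.0, DESeq2 size factors, limma 3.58.1 on log2(FPKM + 1), other filters on low counts, the skeletal muscle marker score as a covariate, a replicate block and leaving out each library. SE and 95% intervals came from the edgeR fit. Single genes were compared on log2(CPM + 0.5) by two-sided exact permutation tests over 126 splits, whose smallest p is 0.00794. Correlations used exact permutation of pairings. Columns were grouped by code, and none could be tied to a single mouse. The 3-count floor, 0.0377 to 0.0402 CPM in the 9 libraries, reflects counting error alone, as PCR duplicates are not separate molecules.

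Named genes were the 10 genes and, of each list, those with an unadjusted p under 0.05, the 2 with the smallest p and the 2 with the highest mean FPKM. For Cd207 they were also the 3 genes with the highest r. Of the marker lists only Mmp8 is given by name under this rule, and the rest by range. The ligand genes Flt3l (for Flt3) and Xcl1 (for Xcr1) were named in addition, as was Il34, the cytokine gene named above with Langerhans cell supply. Positions are those of the deposited table, exon overlaps came from GENCODE M21 and promoters from RefSeq (GRCm38.p6). The fits and permutation tests were tested on simulated data. Figures were drawn with matplotlib 3.10.9 in Python 3.11.15.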

Additional observations from a re-analysis of the deposited data

How the results depend on the processing

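No alternative called any of the 10 genes, and the smallest adjusted p over all alternatives was 0.983. The log2 fold change of Clec9a, 0.00 by edgeR, was -0.01 with DESeq2's size factors, -0.01 with DESeq2's Wald test and -0.0 with the muscle score as covariate. That of Cd86, -0.03 by edgeR, was 0.01 with limma on log2(FPKM + 1), its mean log2 difference was 0.01 on FPKM, and its difference in mean rank was 0.45. For Epcam the difference in mean rank was -0.9, against a mean log2 difference of 0.17. Leaving out each library in turn gave -0.83 to -0.23 for Cd207, -0.39 to -0.12 for Flt3, 0.17 to 1.49 for Batf3 and -0.24 to -0.01 for Zbtb46, without a change of sign. It gave -0.25 to 0.21 for Epcam, -0.34 to 0.01 for Xcr1, -0.13 to 0.22 for Clec9a, -0.11 to 0.51 for Cd83, -0.24 to 0.16 for Cd86 and -0.09 to 0.56 for Irf4, with changes of sign. Batf3 was not tested where at least 10 counts in every library were asked for. The causes were not tested.

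The code numbers 1, 3 and 3_4 occur in both groups. Deviations from the group means correlated at 0.225, 0.118 and -0.219 over all tested genes, so the numbers were not taken to pair the libraries. With a replicate block on these 6 libraries, Cd86 had a log2 fold change of 0.49, Cd207 -0.15 and Batf3 0.90, and 256 genes of the whole table had an unadjusted p under 0.05. The same 6 libraries were also fitted without the block, a step added after the data were seen. This gave 0.41 for Cd86, -0.1 for Cd207, 0.61 for Batf3, -0.13 for Epcam, 0.01 for Flt3, -0.02 for Clec9a and 292 genes. Over the whole table, the 326 genes with an unadjusted p under 0.05 became 905 of 34637 without a filter on low counts, 734 without MXL1 and 217 without MR4_5.

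With 5 and 4 libraries, the differences of the 10 genes could not be told from 0, as each 95% interval held 0. The levels of Batf3 rest on 1 to 60 counts.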

Other observations

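Each group of each gene was searched for a library far from the rest by Dixon's ratio, the gap to the nearest library divided by the range. Of 20 groups, 0 passed the 95% critical value, where chance gives about 1. The closest were MXL_3 in the Model group for Irf4 (ratio 0.761) and for Epcam (ratio 0.701).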
